A study of Drosophila melanogaster with 12 samples.

Results

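The members described here are the nuclear tRNA fragments of fly ovary and testis other than a named set that was left out. They were the rows of class tDNA in a table of 6 ovary libraries and a table of 6 testis libraries, without 8 tRNA genes (proline tRNAs, 1 Gly-GCC, Trp-CCA and Ser-AGA genes) and the rows that carried the same values as these. Gene copies with identical values in all 6 libraries of a table were merged into 1 profile and counted once. In ovary this gave 84 profiles from 282 of 308 tDNA rows, and in testis 84 profiles from 285 of 310 tDNA rows. The ovary table held 968 rows or 749 profiles in all, and that of testis 845 rows or 622 profiles.

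A tRNA carries an amino acid to the ribosome and reads its codons through a 3-base anticodon, and most tRNAs are encoded by many gene copies scattered over the genome. Cells also cut tRNAs into shorter pieces of several lengths, which enter small RNA libraries beside miRNAs and piRNAs. In flies the cytosine methyltransferase Dnmt2 methylates the Asp-GTC, Val-AAC and Gly-GCC tRNAs and protects tRNAs from cleavage under stress. The piRNAs, which silence transposons, are made in ovary and testis alike.

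The 12 libraries were made from 2-day-old *Drosophila melanogaster* kept at 23 °C under a 14-hour light cycle, on molasses food. There were 6 groups of 2 libraries, which the labels call biological replicates. The ovary groups were a control with 2 X chromosomes (XX), the same with a Y chromosome that the labels call Yohio (XXYohio) and the same with one called Ycongo (XXYcongo). The testis groups were a male control (XY), males with an added Yohio (XYYohio) and males with an added Ycongo (XYYcongo). The labels write a caret in each genotype and do not spell out what it stands for, and they give no source for the Y chromosomes beyond their names. The columns of the Yohio groups carry another abbreviation and were assigned to them because no other group remained, so each Yohio value rests on that reading. Values are deposited normalised read counts. The 2 tables were normalised separately, so no test crosses tissues.

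The libraries held 537209 to 2460094 reads outside the spike-ins, counted once per profile, and 45S ribosomal sequence took 39.5% to 74.1% of them. The tables list repeats, tRNA, snoRNA, mitochondrial and ribosomal entries and no protein-coding genes, so the tissue labels could not be checked against cell type markers. The added Y could be checked in ovary, because the Suppressor of Stellate repeats lie on the Y: their antisense signal reached 4291 and 5726 with Yohio and 6842 and 10817 with Ycongo, against 440 and 381 in the controls. In these bulk samples fewer cells of a type and less RNA per cell cannot be told apart.

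The share of the listed reads that the tRNA fragments took depended on how it was counted. Counted once per profile, both XX libraries gave them a small share of the reads, 1.56% and 1.29%, as did those of XXYohio, 1.17% and 1.83%, and of XXYcongo, 1.54% and 2.10%. In testis they took 1.34% and 2.88% in the XY libraries, 2.82% and 1.94% in those of XYYohio and 1.65% and 2.86% in those of XYYcongo. The groups overlapped within each tissue. With every gene copy counted, the shares were 5.89% to 16.1% over the 12 libraries. Without 45S ribosomal sequence in the total they were 2.54% to 7.50%, and the ovary order turned, with a mean of 3.81% in XX, 3.70% in XXYohio and 3.07% in XXYcongo. The smaller share of each testis pair came from the library with more ribosomal sequence (73.1%, 74.1% and 66.1%, against 45.9%, 57.3% and 44.4% in the partner), and the part of ribosomal reads in these shares was not tested.

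Each profile held gene copies of a single isodecoder, a tRNA sequence variant with its own number in the gene symbol, in 84 of 84 profiles of both tables. The largest, Gly-GCC-1 and Lys-CTT-1, merged 13 copies, and 44 ovary and 42 testis profiles were a single row. The 16 genes annotated with 2 exons, whose tRNAs lose an intron, were mostly listed with values of their own: 16 of 16 were alone in their profile in ovary and 11 of 16 in testis, against 27 of 237 and 30 of 244 genes with 1 exon. The number of merged copies and the mean level were weakly related across sense profiles (Spearman's rho 0.14 over 80 profiles in ovary and 0.15 over 81 in testis, a description across profiles that share reads and libraries). Isodecoders of one anticodon differ by few bases and often shared nearly all their signal: Ala-AGC-1, a single copy, and Ala-AGC-2, 11 copies, differed by at most 0.56% in any ovary library. Joining profiles that stayed within 10% of each other in all libraries of a table would leave 56 signals of the 65 tested in ovary and 56 of the 66 tested in testis, so neighbouring isodecoders are not independent observations.

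A few tRNAs made most of the summed member signal. The same 8 profiles led the members in both tables, and their means made up 84.8% of the summed members in ovary and 73.7% in testis. They were Ala-AGC-2 and Ala-AGC-1, Glu-CTC-3, Glu-CTC-1 and Glu-CTC-2, His-GTG-1, Gly-GCC-1 and Cys-GCA-1. Near-identical profiles are each counted in these percents. In any ovary library Ala-AGC-1 and Ala-AGC-2 differed by at most 0.56%, and Glu-CTC-1 and Glu-CTC-3 by at most 0.77%. The median profile had a mean of 18.8 in ovary and 23.4 in testis.

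Ala-AGC-2 was first among the members in both tables. It stood at 2145 and 1877 in the XX libraries, 2274 and 2282 in those of XXYohio and 2310 and 2112 in those of XXYcongo. In testis it stood at 1427 and 2675 in the XY libraries, 1685 and 2402 in those of XYYohio and 1277 and 1849 in those of XYYcongo. The 6 ovary libraries lay close together, and the testis groups overlapped. Left-out tRNAs were not ranked with the members, and among them Pro-TGG-1-2 stood at 1781 to 3302 in the testis libraries.

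The Glu-CTC and His-GTG profiles differed more between the 2 tissues. Glu-CTC-3 was 1809 and 1453 in the XX libraries, 741 and 1894 in those of XXYohio and 1361 and 2127 in those of XXYcongo, against 325 and 551 in XY and 478 and 732 in XYYcongo. The XYYohio libraries spread most widely, with 1578 and 225. His-GTG-1 was 1622 and 1194 in XX and 264 and 434 in XY. Both controls of the ovary lay above both controls of the testis for these tRNAs, a side by side reading with no test.

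Gly-GCC-1 held different places in the ovary groups. It made up 0.80% and 1.45% of the summed members in the XX libraries and 1.51% and 1.27% in those of XXYohio, but 6.78% and 16.7% in those of XXYcongo. In testis it made up 15.0% and 15.8% in the XY libraries, 10.5% and 14.3% in those of XYYohio and 16.9% and 25.8% in those of XYYcongo. The XXYcongo ovary thus lay above the other ovary groups, and its higher library lay within the testis range.

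**Figure D1:**
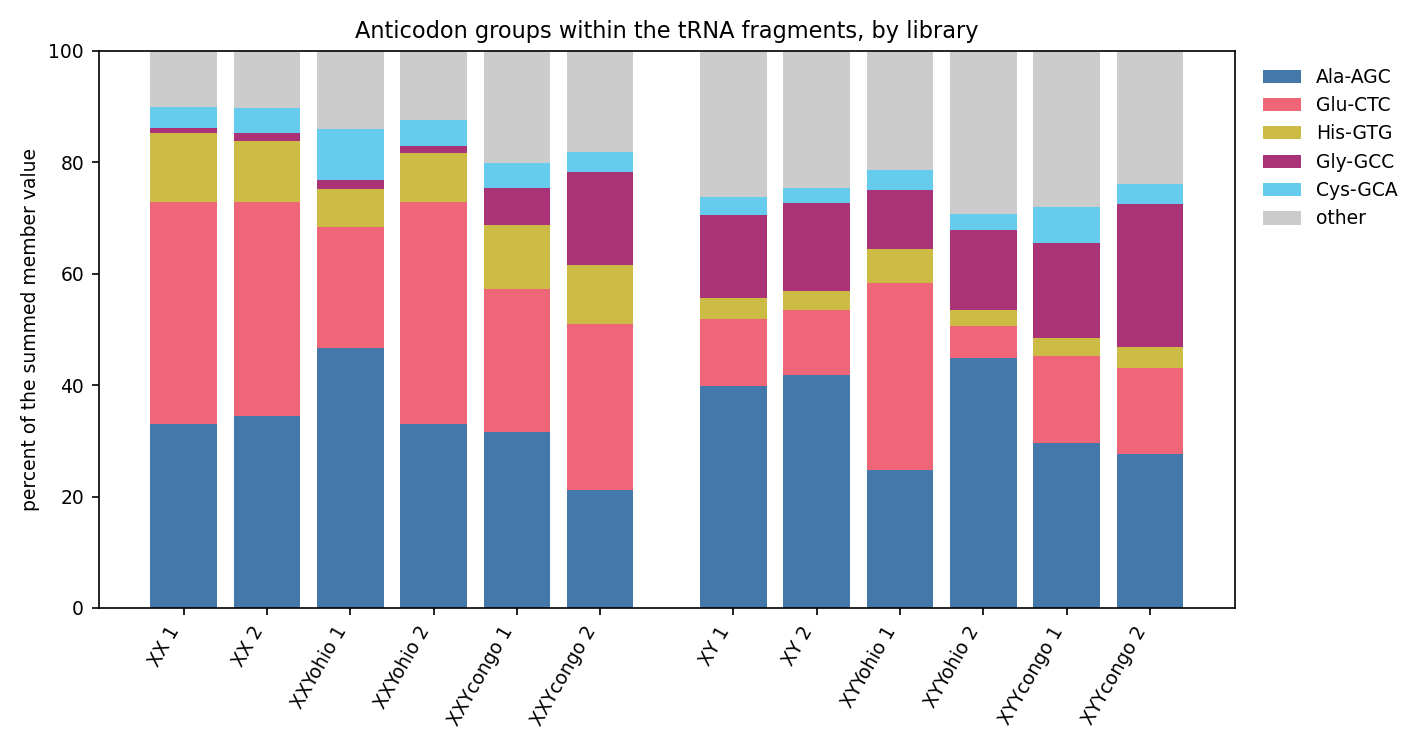
Percent of the summed member value (vertical axis) taken by 5 anticodon groups and by all other anticodons in each of the 12 libraries, ovary on the left and testis on the right. Near-identical isodecoders are each counted. Gly-GCC is 0.80% to 1.51% in the XX and XXYohio libraries and 6.78% to 25.8% in the XXYcongo and testis libraries, and Glu-CTC ranges from 5.78% in an XYYohio library to 39.9% in ovary.

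Antisense reads were rare. There were 4 antisense profiles in ovary and 3 in testis, which took 0.016% to 0.1% of the summed members in ovary and 0.123% to 0.402% in testis. The antisense Ala-AGC-2 profile was 13 and 21.4 in the XY libraries, 18.9 and 13.9 in those of XYYohio and 4.09 and 18.7 in those of XYYcongo, which overlap. All antisense profiles of ovary had means under 5 and were not tested.

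Profiles were tested where their 6 values in a table averaged 5 or more, which 65 of the 84 ovary profiles and 66 of the 84 testis profiles did. In ovary 8 of the 65 did so only through the XXYcongo libraries (Arg-TCG-1, Arg-TCG-2, Arg-TCG-3, Leu-CAA-1, Ser-CGA-1, Thr-CGT-1, Val-CAC-2 and iMet-CAT-2). The mean of their XX and XXYohio libraries was under 5, so they had to be higher in XXYcongo than that mean. They did not have to be higher than each group: Thr-CGT-1 had a mean of 7.24 in XXYohio and 5.63 in XXYcongo. Values of these 8 in XXYcongo are given as a description with no p, and the counts below describe the tested profiles and not all members. In testis none did. The profiles not tested included the selenocysteine tRNA SeC-TCA-1, both elongator methionine tRNAs (Met-CAT-1 and Met-CAT-2) and Trp-CCA-1 in both tables. Differences are on the scale of log2(value + 1), from limma fitted to the whole table of each tissue, with Benjamini-Hochberg adjusted p-values and 0.05 as the threshold.

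The first comparison asked what Ycongo did in ovary. In XXYcongo against XX, 24 of 65 tested tRNA profiles were higher and none was lower, while 41 did not pass. This was 36.9% of the tested members, where 46.8% of all 631 profiles tested were called higher and 6.34% lower. The median difference was 0.70 for the members and 0.70 for all profiles. Without the profiles that were tested only through XXYcongo, 18 of 57 members were higher, or 31.6%, and 45.8% of 603 profiles. Rises are given against the common shift where it matters. The 24 profiles came from 14 anticodons, or 22 signals when near-identical profiles are joined. The 22 can overstate separate rises, because low counts in the first XX library kept like profiles apart. There Ser-AGA-2 and Ser-AGA-3 were 5 and 8, and Arg-TCG-2 and Arg-TCG-3 were 5 and 2.

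When libraries were scaled by TMM, which centres the bulk of profiles (median of all profiles -0.06), the members split differently. Then 18 of 65 were higher and 4 lower, against 21.2% higher and 21.7% lower of all profiles. All 18 were among the 24. They included Arg-TCG-1, Arg-TCG-2, Arg-TCG-3, Ser-CGA-1 and iMet-CAT-2, which were tested only through XXYcongo. High values there were a condition of testing these, so they add no support to the count. The 4 that were lower were Ala-AGC-1, Ala-AGC-2, Lys-CTT-1 and Lys-TTT-2-1/2/3/4, of which Ala-AGC-2 was at -0.65 ± 0.13 (SE, adjusted p = 0.00418) and Lys-CTT-1 at -0.83 ± 0.19 (adjusted p = 0.00694). On the deposited values Ala-AGC-2 differed by 0.14 and Lys-CTT-1 lay at 174 and 145 in XX and 143 and 165 in XXYcongo, which overlap. TMM scaling lowered the median of all profiles from 0.70 to -0.06, so a difference as small as that of Ala-AGC-2 turned with it by construction.

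The glycine tRNAs held the most abundant rise. Gly-GCC-1, 13 gene copies reading the GGC and GGT codons, was 104 and 158 in the XX libraries, 146 and 176 in those of XXYohio and 992 and 3341 in those of XXYcongo. Both XXYcongo libraries lay far above the other ovary libraries, but they differed more from each other than any other tested profile did in that group. The log2 difference from XX was 3.82 ± 0.33 (SE, n = 2 and 2, adjusted p = 3.39e-12), or 3.12 above the median of all profiles, and it ranged from 2.94 to 4.69 when single libraries were left out.

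A left-out gene, Gly-GCC-2-1, had nearly the same values in XXYcongo, 926 and 3273. The amount by which Gly-GCC-1 exceeded it was 62 and 74.1 in the XX libraries, 86.1 and 79.3 in those of XXYohio and 66.1 and 68.4 in those of XXYcongo. In testis the excess was 35.7 to 88.5. The excess did not separate XXYcongo from the other ovary groups, and both Gly-GCC entries rose by nearly the same amount.

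Gly-TCC-1, which reads GGA and GGG codons, was 6 and 2.80 in the XX libraries, 8.61 and 5.14 in those of XXYohio and 63 and 66.2 in those of XXYcongo. Its 2 XXYcongo libraries were close to each other and above all other ovary libraries. The difference was 3.67 ± 0.52 (adjusted p = 3.12e-07). Gly-TCC-2 was 10 and 4.20 in XX and 11.2 and 16.3 in XXYcongo and did not pass. Thus 2 of the 3 glycine profiles were called higher, where 46.8% of all profiles were.

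Among the alanine tRNAs the rare anticodons rose and the abundant one did not pass. Ala-CGC-1, 3 copies, was 9 and 4.20 in the XX libraries, 5.74 and 8.08 in those of XXYohio and 121 and 90.5 in those of XXYcongo, with a difference of 3.87 ± 0.47 (adjusted p = 1.49e-08). Ala-TGC-1 was 23 and 25.2 in XX and 123 and 109 in XXYcongo, with a difference of 2.22 ± 0.34, and Ala-TGC-2 differed by 2.13 ± 0.34. The groups did not overlap for any of these 3 profiles. Within a library, Ala-CGC-1 was 0.42% and 0.22% of Ala-AGC-2 in the XX libraries, 0.25% and 0.35% in those of XXYohio and 5.24% and 4.28% in those of XXYcongo. This ratio does not depend on scaling and shows that the 2 alanine anticodons changed unequally.

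**Figure D2:**
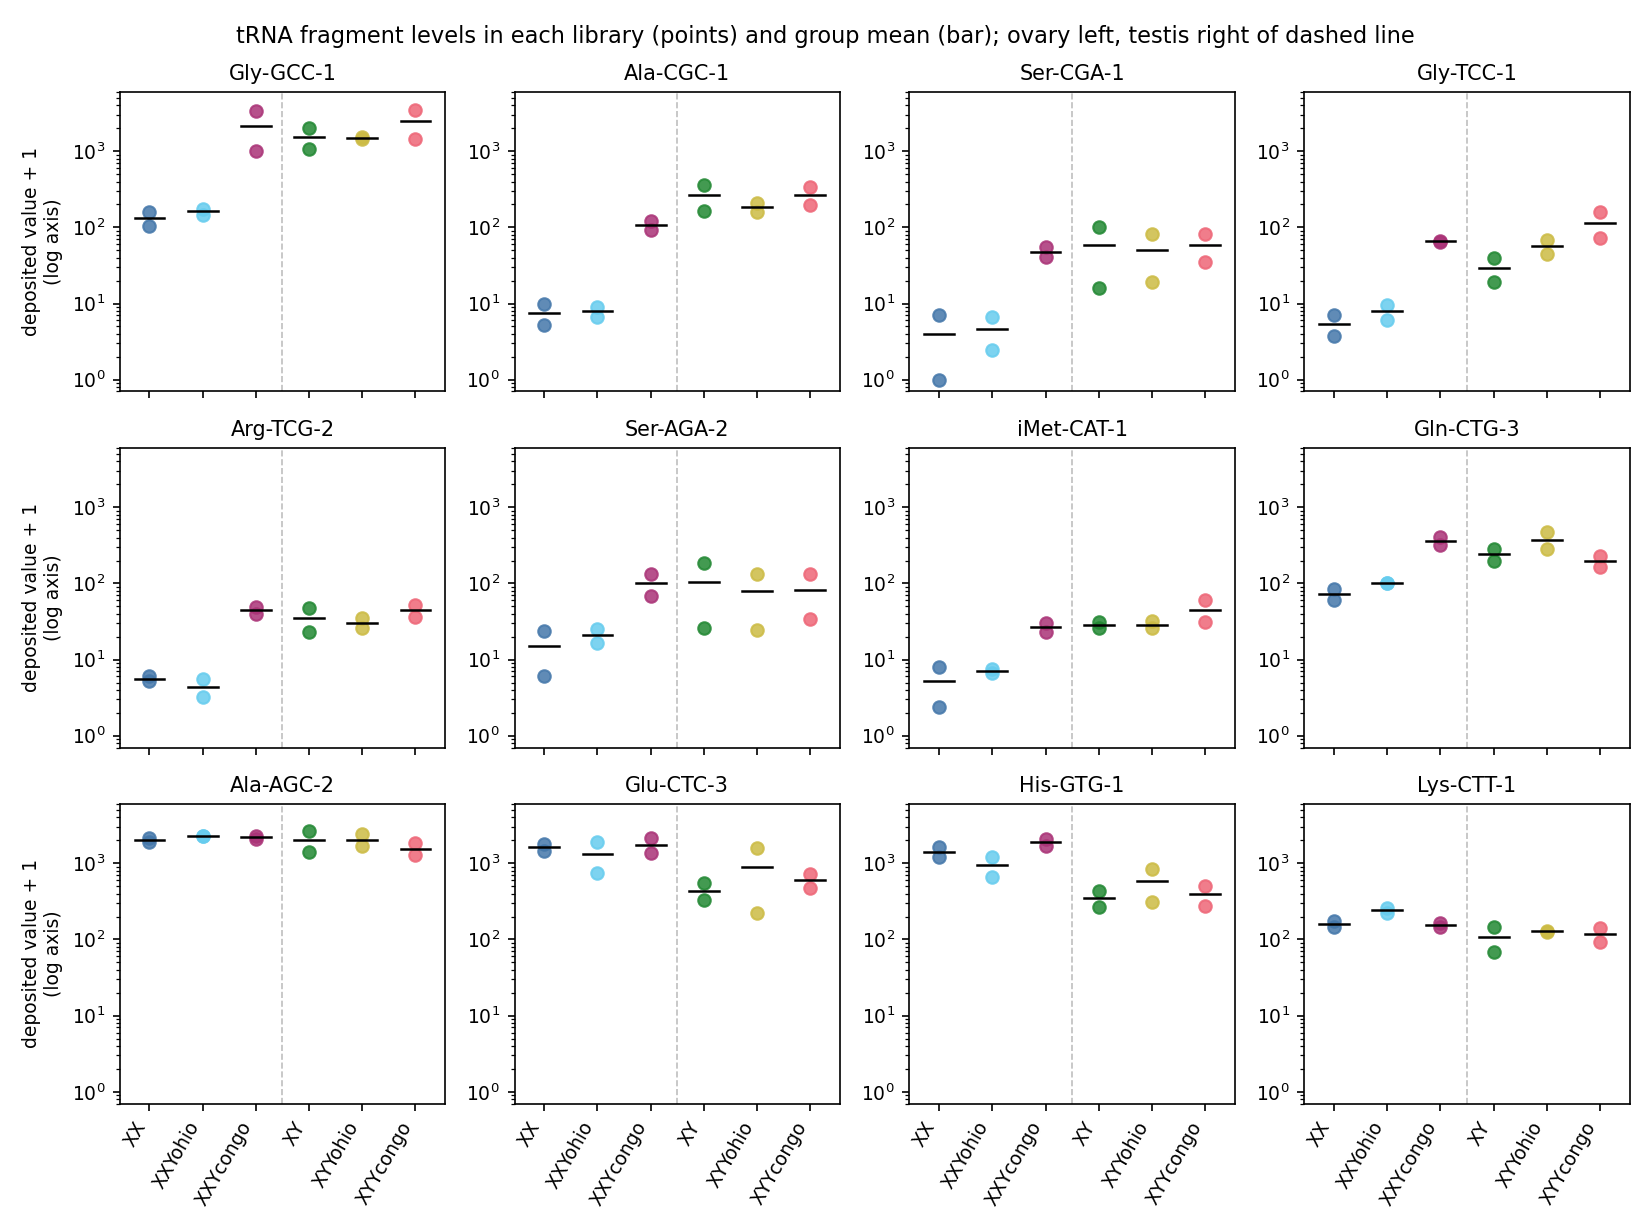
Deposited value + 1 on a log axis for 12 tRNA profiles in each library (points) with the group mean (bar), ovary groups left of the dashed line and testis groups right of it, normalised separately. The first 8 panels show profiles called higher in XXYcongo (Ser-CGA-1 and Arg-TCG-2 tested only through those libraries), such as Gly-TCC-1 with 63 and 66.2 against 8.61 or less in the other ovary libraries, and the last row shows abundant profiles that did not pass against XX.

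The serine and arginine profiles that were higher came from low levels. Ser-CGA-1, tested only through XXYcongo, was 6 and 0 in the XX libraries, 5.74 and 1.47 in those of XXYohio and 39.4 and 54.7 in those of XXYcongo, a fitted difference of 4.17 ± 0.73. That value depends on the library at 0, since it ranged from 2.76 to 5.57 over single libraries left out. Its XXYcongo values matched those of the left-out Ser-AGA-1-1, 39 and 56, so the reads of these serine genes cannot be told apart.

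Ser-AGA-2 was 5 and 23.1 in XX and 66.9 and 133 in XXYcongo, a difference of 2.99 ± 0.47, and Ser-AGA-3 differed by 2.70 ± 0.43. Ser-GCT-1 and Ser-GCT-2 did not pass, so 2 of the 4 serine profiles other than Ser-CGA-1 rose, where 46.8% of all profiles did. Ser-AGA-2 and Ser-AGA-3 were nearly the same in every ovary library but the first XX library (5 and 8), so they are not separate rises. The 3 Arg-TCG profiles were all tested only through XXYcongo, so their being higher there was a condition of the test. Arg-TCG-2 was 5 and 4.20 in XX and 38.7 and 48.5 in XXYcongo, a difference of 2.99 ± 0.58, and Arg-TCG-3 and Arg-TCG-1 differed by 3.46 and 2.96. Arg-CCT-1 and Arg-TCT-1 did not pass, with 24 and 10.5 in XX and 6.96 and 19.4 in XXYcongo for the latter.

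Of the initiator methionine tRNAs, which start translation, 1 rose and the other was tested only through XXYcongo. iMet-CAT-1, 5 copies, was 7 and 1.40 in XX and 22 and 29.6 in XXYcongo, with a difference of 2.60 ± 0.62 (adjusted p = 0.000587). iMet-CAT-2 was 6 and 1.40 in XX and 20.9 and 27.8 in XXYcongo. These are low values and the XX libraries of both differed widely, although the groups did not overlap.

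Of the glutamine profiles 5 of 6 were called higher, where 46.8% of all profiles were. Gln-CTG-2 and Gln-CTG-3 stayed within 10% of each other, so the 5 make 4 signals. Gln-CTG-3 was 60 and 83.9 in the XX libraries, 99.3 and 101 in those of XXYohio and 405 and 320 in those of XXYcongo, a difference of 2.33 ± 0.28 (adjusted p = 1.37e-08). Gln-CTG-4, Gln-TTG-1 and Gln-TTG-2 differed by 2.11, 1.95 and 1.33, and the last call ended in 6 of the alternatives, among them TMM scaling (0.56, adjusted p = 0.252). Gln-CTG-1, at 9 and 14 in XX and 20.5 and 21.6 in XXYcongo, did not pass (adjusted p = 0.120).

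The aspartate tRNAs, which Dnmt2 methylates in flies, were 3 of 3 called higher, where 46.8% of all profiles were. Asp-GTC-1 and Asp-GTC-3 differed by at most 23.4% in any ovary library, so the 3 are not separate observations. Asp-GTC-1 was 52 and 34.3 in the XX libraries, 59.7 and 91.1 in those of XXYohio and 73.1 and 239 in those of XXYcongo, a difference of 1.62 ± 0.37 (adjusted p = 0.000369). The XXYcongo libraries differed more than 3-fold and the lower one lay inside the XXYohio range. Without the higher XXYcongo library the difference was 0.78, and with TMM scaling it was 0.84 (adjusted p = 0.183), neither of which passed. Asp-GTC-2 and Asp-GTC-3 lost their calls under the same changes.

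Leucine gave 1 call, where 46.8% of all profiles were called higher. Leu-AAG-1 was 15 and 14.7 in XX and 42.9 and 111 in XXYcongo, a difference of 2.15 ± 0.41 (adjusted p = 3.58e-05), while the other 6 tested leucine profiles did not pass. Val-CAC-2, tested only through XXYcongo, was 1 and 4.20 in XX and 7.73 and 14.1 in XXYcongo.

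Of the glutamate tRNAs, next to alanine in abundance, 1 of 5 was called higher, where 46.8% of all profiles were. Glu-CTC-1, Glu-CTC-2, Glu-CTC-3 and the pseudogene Glu-CTC-5Psi did not pass, and Glu-CTC-3 differed by 0.07 ± 0.28. Glu-TTC-1 was 123 and 81.8 in XX and 170 and 193 in XXYcongo, a difference of 0.85 ± 0.31 (adjusted p = 0.0207), only 0.15 above the median of all profiles, and the call ended under TMM scaling.

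Where 46.8% of all profiles were called higher, no profile passed among the tyrosine (0 of 10), lysine (0 of 4), cysteine (0 of 3), histidine, isoleucine, phenylalanine, threonine and asparagine tRNAs (0 of 1 each). The tRNAs whose fly genes carry introns, Tyr-GTA, Leu-CAA and Ile-TAT, gave 0 calls of 15, with a median difference of 0.66. The anticodons that receive queuosine, a modified guanine at the wobble position (Asp-GTC, Asn-GTT, His-GTG and Tyr-GTA), gave 3 of 15, the 3 aspartate profiles. Counts of 1 profile cannot be read against that share, the Tyr-GTA profiles share signal, and a p that misses the threshold does not show that these tRNAs stayed the same.

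**Figure D3:**
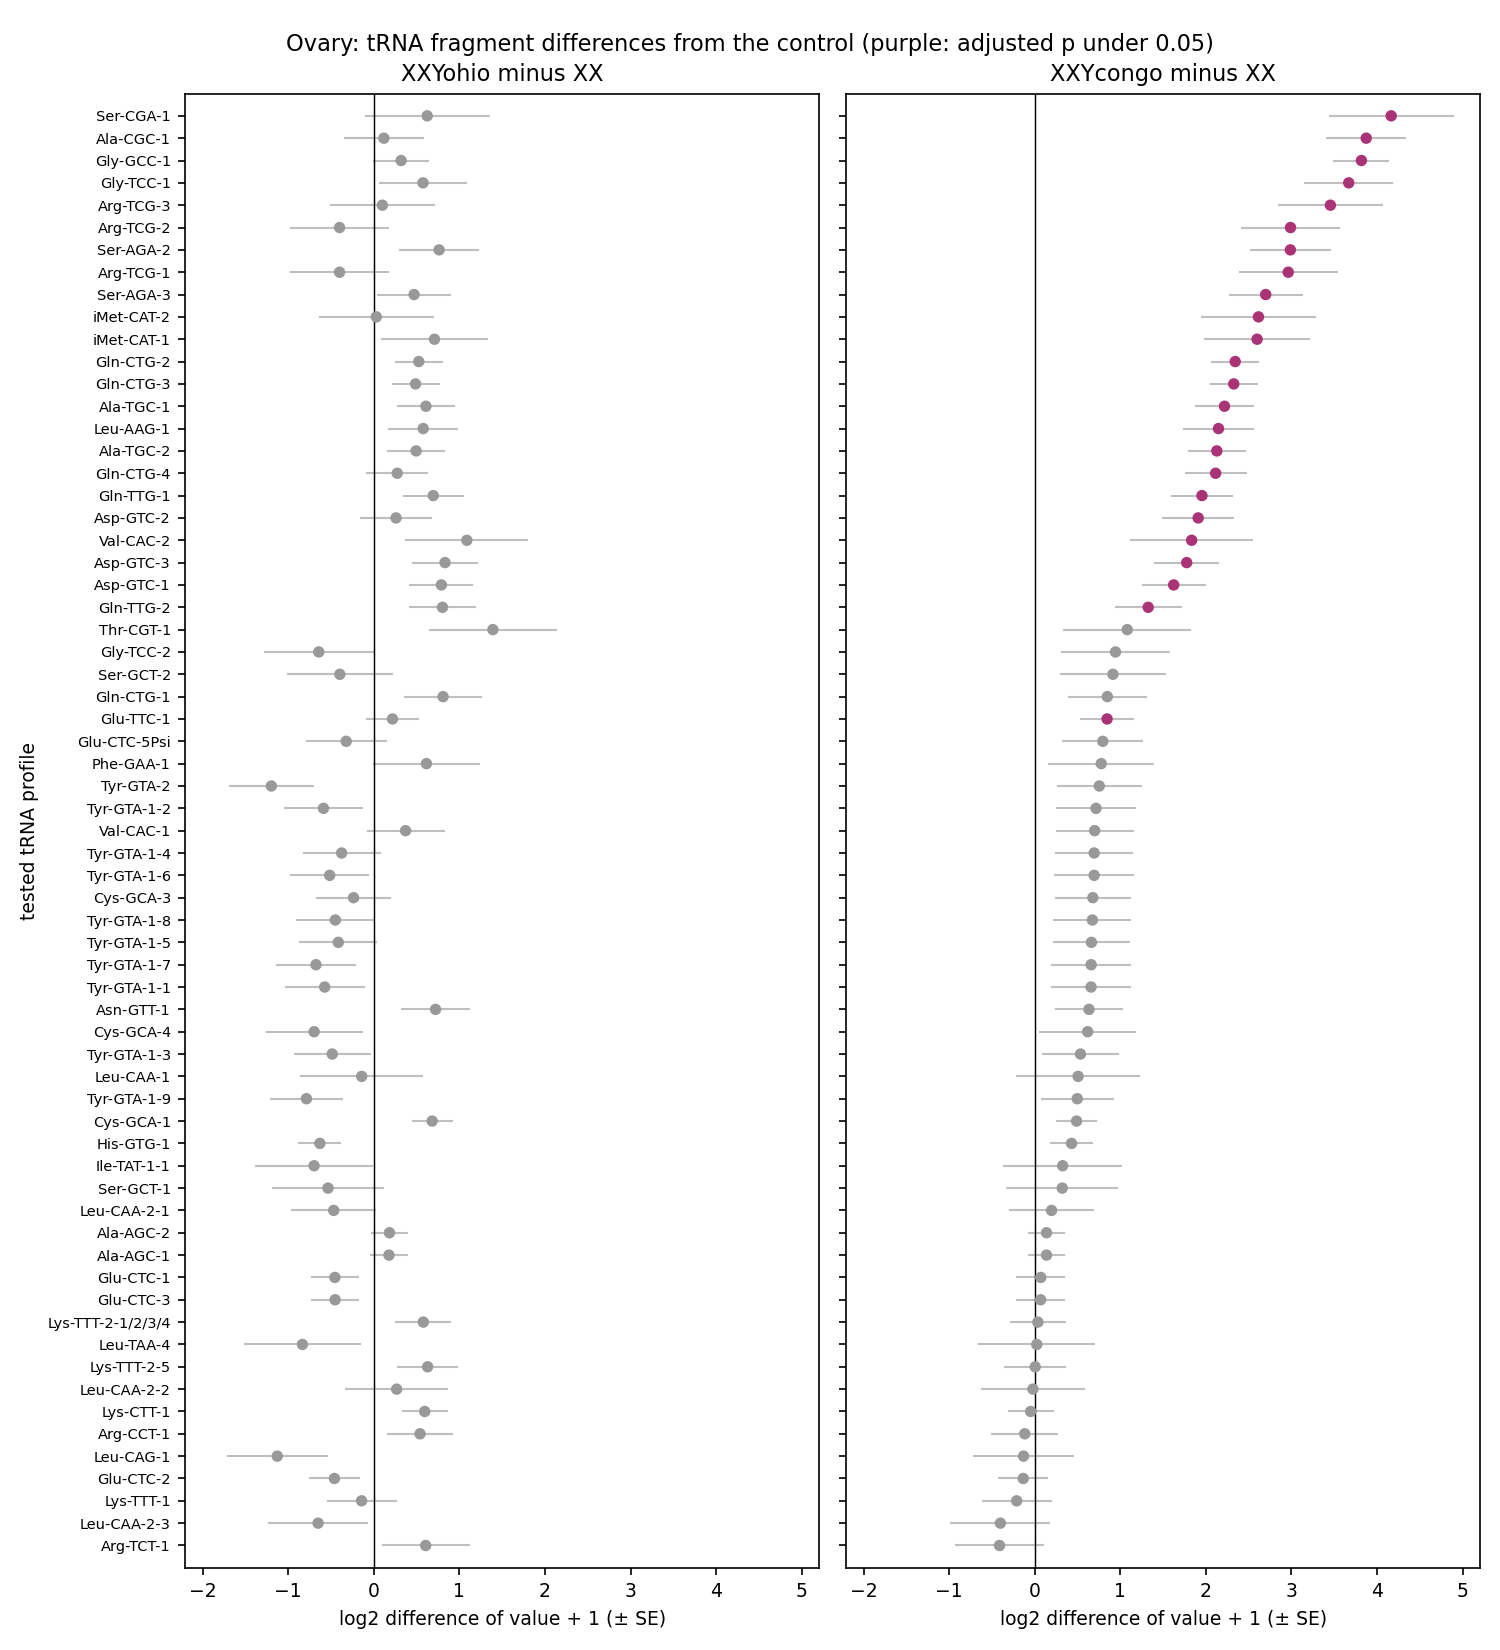
Log2 difference of value + 1 (horizontal axis, ± SE) for the 65 tested ovary profiles in XXYohio minus XX (left) and XXYcongo minus XX (right), ordered by the latter. Purple points pass an adjusted p of 0.05: none on the left and 24 on the right, from 0.85 for Glu-TTC-1 to 4.17 for Ser-CGA-1, and 6 of the 24 were tested only through XXYcongo.

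Other RNA classes in the same fit moved differently. Where 46.8% of all profiles were called higher and 6.34% lower, the 8 tested left-out tRNA profiles were all called higher. Their median was 5.23, which is above that of the members, a difference that was not tested. Pro-AGG-1-6, Pro-CGG-1-1, Pro-CGG-2-1, Pro-CGG-3-1 and Ser-AGA-1-1 among them were 7 or less in each XX and XXYohio library. They averaged under 5 there and were tested only through XXYcongo, so high values there were a condition of testing these. Of 5 mitochondrial tRNAs 2 were higher, and of 192 snoRNAs 2 were higher and 31 lower.

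The second comparison asked the same of Yohio. In XXYohio against XX, 0 of 65 tRNA profiles passed, where 3.65% of all profiles were called higher and 2.06% lower. An unadjusted p under 0.05 was reached by 7 members with limma, 5 with edgeR and 4 with DESeq2, and both count tests also called 0. The member median was 0.18 and that of all profiles 0.03, and the members ranged from -1.20 (Tyr-GTA-2) to 1.39 (Thr-CGT-1). Thr-CGT-1 was 3 and 1.40 in XX and 8.61 and 5.87 in XXYohio. Its mean over the ovary libraries was 5.02, so its XXYohio values helped it pass the filter of 5, and its difference is a description. The groups did not overlap for 21 members that were higher and 6 that were lower, or 32.3% and 9.23%, where 24.7% and 20% of all profiles did so.

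Cys-GCA-1 came nearest to a call. It was 466 and 448 in the XX libraries, 876 and 614 in those of XXYohio and 615 and 669 in those of XXYcongo, so both XX libraries were lowest. The difference of XXYohio from XX was 0.68 ± 0.24 (95% interval 0.19 to 1.17, adjusted p = 0.0930). His-GTG-1, at 664 and 1218 in XXYohio, differed by -0.63 ± 0.25 (adjusted p = 0.159), and its groups overlapped.

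On the deposited values the profiles that rose most with Ycongo had small differences here. The size of the differences depended on scaling. With TMM scaling the member median was 0.17. With spike-in total scaling it was 1.41, where all profiles had 1.28, and no member passed. The spike-in member median for XXYcongo against XX was 1.58. Values that follow are on the deposited scale. Gly-GCC-1 differed by 0.32 ± 0.33 between XXYohio and XX, Ala-CGC-1 by 0.12 ± 0.47 and Gly-TCC-1 by 0.58 ± 0.52. The 95% interval for Gly-GCC-1 ran from -0.34 to 0.98 and that for Ala-CGC-1 from -0.83 to 1.07.

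The third comparison set the 2 Y chromosomes against each other in ovary. In XXYcongo against XXYohio, 33 of 65 profiles were higher, 1 was lower and 31 did not pass. These were 50.8% and 1.54% of the tested members, where 49.3% and 7.77% of all profiles were called. The members' median was 1.06 and that of all profiles 0.81, and the 33 came from 16 anticodons or 26 joined signals. Without the profiles tested only through XXYcongo, 28 of 57 members were higher, or 49.1%, and 49.3% of 603 profiles. XXYcongo libraries enter this comparison and the one against XX, so the 2 are not independent.

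Ala-CGC-1 (3.76 ± 0.47, adjusted p = 6.03e-08) and Gly-GCC-1 (3.50 ± 0.33, adjusted p = 7.65e-11) were the 2 profiles whose call held under every alternative tried. With TMM scaling their adjusted p-values were 0.00131 and 0.00336. Gln-CTG-3 differed by 1.84 ± 0.28 (adjusted p = 2.70e-06), and Gly-TCC-1 by 3.09 ± 0.52, and these lost their call with scaling to the spike-in total. With TMM scaling 13 members were higher and 8 lower, against 16.3% and 23.8% of all profiles. The 13 included Arg-TCG-1, Arg-TCG-2, Arg-TCG-3, Ser-CGA-1 and iMet-CAT-2, which were tested only through XXYcongo. Without the first XXYohio library the members' median difference was 0.90 and that of all profiles 0.72. Without the second XXYcongo library these were 0.81 and 0.78.

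His-GTG-1 was 664 and 1218 in XXYohio and 1670 and 2110 in XXYcongo, a difference of 1.06 ± 0.25 (adjusted p = 0.000546) that fell to 0.28 under TMM scaling (adjusted p = 0.377). Of the 10 Tyr-GTA profiles 9 were called higher, where 49.3% of all profiles were. The Tyr-GTA median difference was 1.22 and that of all profiles 0.81. Tyr-GTA-1-9 was 11.5 and 15.4 in XXYohio and 31.7 and 36.2 in XXYcongo, a difference of 1.28 ± 0.43 (adjusted p = 0.0108). Under TMM scaling its difference was 0.53 and did not pass, nor did the other called Tyr-GTA profiles. Profiles within 10% of each other in all libraries joined, the 9 called Tyr-GTA profiles make 4 signals.

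Lys-CTT-1, 13 copies, was the profile that fell. It was 222 and 260 in XXYohio and 143 and 165 in XXYcongo, a difference of -0.64 ± 0.27 (adjusted p = 0.0385), with no overlap. The XX libraries, at 174 and 145, lay beside those of XXYcongo. Under TMM scaling the difference was -1.42, and 7 other profiles joined it: Ala-AGC-1, Ala-AGC-2, Arg-CCT-1, Arg-TCT-1, Cys-GCA-1, Lys-TTT-2-1/2/3/4 and Lys-TTT-2-5. The call ended in 8 of the alternatives, among them each of the 4 that left out an XXYohio or XXYcongo library.

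In testis the tRNA fragments gave no call. For XYYohio against XY, 0 of 66 tested profiles passed, where 0.897% of all 446 profiles were called higher and 0% lower. For XYYcongo against XY, 0 of 66 passed, where 1.57% were called higher and 0.673% lower, and for XYYcongo against XYYohio, 0 of 66, where 0% of all profiles were called. Unadjusted p under 0.05 was reached by 1, 5 and 0 members. edgeR also called 0 in each (5, 11 and 10 at an unadjusted p under 0.05), and DESeq2 called 0, 2 and 0 (5, 8 and 6 unadjusted). For XYYcongo against XY DESeq2 called 10 of all 446 profiles higher and 5 lower.

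The nearest to a call was Gly-TCC-1. It was 18 and 38.3 in the XY libraries, 67.4 and 44.3 in those of XYYohio and 157 and 72.3 in those of XYYcongo, so that both XYYcongo libraries lay above the others. The difference of XYYcongo from XY was 1.98 ± 0.64 (95% interval 0.72 to 3.23, adjusted p = 0.0754). It was 1 of the 2 that DESeq2 called, with Asp-GTC-3. Gly-TCC-2 was 11 and 6.85 in the XY libraries, 36.2 and 17.6 in those of XYYohio and 40 and 24.7 in those of XYYcongo, and differed by 1.74 ± 0.67 (adjusted p = 0.221).

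The 3 Asp-GTC profiles were lowest in both XY libraries. Asp-GTC-1 was 34 and 43.1 in the XY libraries, 104 and 80 in those of XYYohio and 80.1 and 128 in those of XYYcongo. It differed from XY by 1.23 ± 0.64 in XYYohio (adjusted p = 0.932) and by 1.38 ± 0.64 in XYYcongo (adjusted p = 0.477). Both comparisons share the XY libraries. The groups did not overlap for 10 higher and 8 lower members in XYYohio (15.2% and 12.1%, where all profiles gave 13% and 12.1%), and for 15 and 6 in XYYcongo (22.7% and 9.09%, where all profiles gave 23.5% and 8.74%).

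Gly-GCC-1, so different between ovary groups, was 1078 and 2035 in the XY libraries, 1444 and 1537 in those of XYYohio and 1460 and 3477 in those of XYYcongo. Ala-CGC-1 was 161 and 363, then 206 and 160, then 194 and 336 in the same groups. These testis groups overlapped.

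By the median over members, the 2 libraries of a group differed by like amounts in both tissues. For Gly-TCC-1 and Asp-GTC-1 the fitted SE was still larger in testis than in ovary. A testis difference of the same size thus passed less readily, and the lack of calls there does not show equal levels. The median absolute log2 difference between replicates over the tested members came to 0.65 for XY, 0.51 for XYYohio and 0.57 for XYYcongo, and to 0.60 for XX, 0.51 for XXYohio and 0.47 for XXYcongo. For Glu-CTC-2 in XYYohio it was 3.05 (1380 and 165). In testis, for 17 of 66 profiles the library numbered 2 was the higher one in all 3 genotypes, and for 2 the library numbered 1. The difference was at least 2-fold in each genotype for Cys-GCA-2, Ser-AGA-2, Ser-AGA-3 and Ser-CGA-1. Ser-AGA-3 was 28 and 185 in the XY libraries, 24.7 and 133 in those of XYYohio and 32.7 and 130 in those of XYYcongo. The labels do not say that a replicate number marks a shared batch.

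The order of the tRNA levels in each ovary group was set beside that in testis. Over the 57 profiles tested in both tables, levels in XY had a Spearman's rho of 0.56 with XX, 0.65 with XXYohio and 0.79 with XXYcongo, a description across profiles that share reads. The XXYcongo minus XX difference and the XY minus XXYohio difference, which use different libraries, had a Pearson's r of 0.64 and a Spearman's rho of 0.54. Of the 24 profiles that rose in XXYcongo, both XXYohio libraries lay below both XY libraries for 18, against 12 of the other 33. Among the 57 profiles, 7 were tested only through XXYcongo and so were chosen for high values there. Over the other 50 the rho with XY was 0.61 for XX, 0.74 for XXYohio and 0.78 for XXYcongo, the r was 0.57 with a rho of 0.43, and the counts were 13 of 18 against 11 of 32.

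For Ala-CGC-1, XXYcongo, at 121 and 90.5, stood between the other ovary groups and XY, at 161 and 363. Gly-GCC-1 in XXYcongo overlapped XY. The aspartate tRNAs and Leu-AAG-1 rose in XXYcongo without being higher in XY than in XXYohio: Leu-AAG-1 was 21.8 and 23.5 in XXYohio and 11 and 21 in XY. Leu-CAA-1, tested only through XXYcongo, did not pass there and was higher in testis, at 20 and 34.3 in XY, 4 and 5.59 in XX and 8.89 and 5.74 in XXYcongo.

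**Figure D4:**
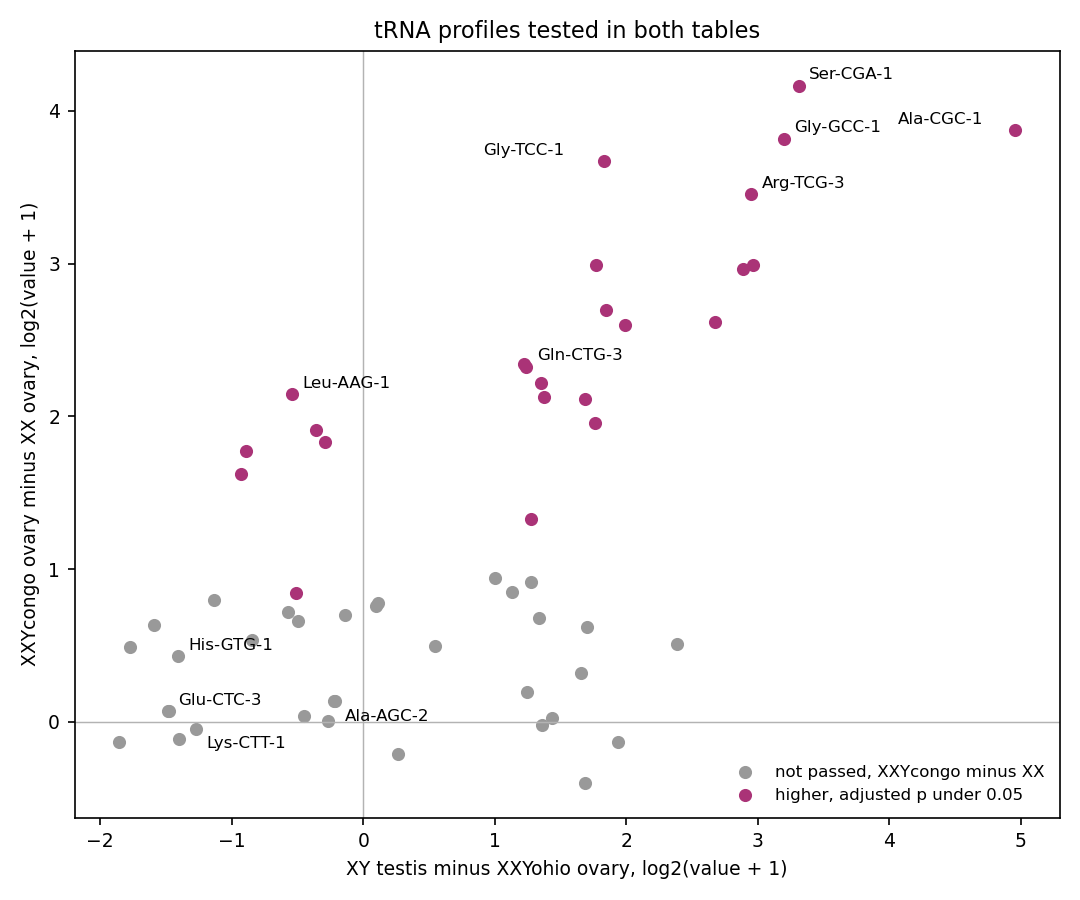
XXYcongo ovary minus XX ovary (vertical axis) against XY testis minus XXYohio ovary (horizontal axis), both on log2(value + 1), for the 57 tRNA profiles tested in both separately normalised tables. Purple points were called higher in XXYcongo. Ala-CGC-1, Gly-GCC-1, Ser-CGA-1 and Arg-TCG-3 lie high on both axes, and Leu-AAG-1 rose on the vertical axis without being higher in testis (Pearson's r 0.64, or 0.57 without the 7 profiles tested only through XXYcongo, among them Ser-CGA-1 and Arg-TCG-3, a description).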

How the data were processed

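Small RNAs were sequenced from ovary and testis in 12 libraries. The submitters' processing notes name Trim Galore and Bowtie 1.1.1. Not given in the sources used here are the genome build, the annotation, how multiply mapping reads were treated and how libraries were scaled. The deposited values are read counts per gene copy and strand in the first XX and first XY library, and the signal of the other 10 is counts divided by a size factor in each, which gave whole reads for 100% of values (within 0.01). The authors also deposited ANOVA p-values, under 0.05 for 17 of the 84 ovary and 2 of the 84 testis member profiles, which were used for no call. The tables give no read length or position, so fragment types cannot be told apart.

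Rows sharing all 6 values in a table were merged. Spike-ins were left out, and profiles with a mean of at least 5 were tested on log2(value + 1) with limma 3.58.1 (R 4.3.3; empirical Bayes with trend, all 3 genotypes of a tissue in 1 fit, two-sided, Benjamini-Hochberg over all profiles tested). Each group has 2 libraries, so an exact test of single values cannot pass. Because the signal gave whole reads, edgeR 4.0.16 and DESeq2 1.42.0 were run on them as alternatives, beside other scalings, pseudocounts, filters, a replicate block and leaving out each library. The limma step was tested on simulated data. Gene symbols and exon counts came from an Ensembl fly annotation by gene identifier, with 282 of 282 and 285 of 285 rows matched. No sequences or coordinates are given.

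The text names the 8 member profiles with the highest mean in each table and the 8 largest called rises and falls of each comparison. It also names the most abundant ovary member profile of each amino acid, and further profiles of those families chosen after their values were seen. The members and lists were chosen with earlier results of these data known.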

Additional observations from a re-analysis of the deposited data

Results flagged for a closer look

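Phe-GAA-1, which decodes phenylalanine, had values on opposite sides of the controls in the Ycongo groups of the 2 tissues, and passed in neither. It was 8 and 3.50 in XX and 9.66 and 10.2 in XXYcongo, a ratio of means of 1.73 and a log2 difference of 0.69 between the group means plus 1. In testis it was 9 and 10.1 in XY and 5.72 and 4.26 in XYYcongo, or -0.82. Both libraries of each Ycongo group lay on one side of both controls. The fitted ovary difference, 0.78, was close to the median of all profiles, 0.70, and with TMM scaling it was 0.09 (adjusted p = 0.920), against -1.08 in testis (adjusted p = 0.372). The difference between the tissues was not tested, and these are values of a few reads per library.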

How the results depend on the processing

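Over 618 alternative values for 30 named ovary differences, 560 kept their direction and their side of the threshold and 58 no longer passed. In XXYcongo against XX, 18 of the 24 risen profiles passed under each alternative that tested them. Glu-TTC-1, Val-CAC-2, Gln-TTG-2 and the 3 Asp-GTC profiles did not. Among the 18, the filter at a mean of 20 did not test Arg-TCG-1, Arg-TCG-2, Arg-TCG-3, Ser-CGA-1, iMet-CAT-1 and iMet-CAT-2. All of these but iMet-CAT-1 were also among those tested only through XXYcongo. In XXYcongo against XXYohio the count of 34 called became 21 with TMM scaling, 22 with median-of-ratios scaling, 2 with spike-in scaling and 22 with edgeR, and leaving out single libraries gave 20 to 40. In XXYohio against XX snoRNA scaling gave 1 call (Cys-GCA-1) and leaving out single libraries gave 0 to 4. In testis, leaving out single libraries gave member medians of -0.20 to 0.47 in XYYohio against XY and -0.07 to 0.52 in XYYcongo against XY. In the latter DESeq2 gave 2 calls, where 10 of all 446 profiles were higher and 5 lower. The cause of these changes was not tested.

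A replicate block gave 0, 24 and 37 calls in the 3 ovary comparisons and 0 in testis. Of all 631 ovary profiles it called 25 higher and 17 lower, then 296 and 45, then 321 and 53. With TMM scaling the block gave 20 for XXYcongo against XXYohio, where 102 of all profiles were higher and 156 lower. Deviations of libraries from their group mean were correlated between groups for the same replicate number. Over all tested profiles this gave -0.04, -0.01 and 0.24 between ovary groups and 0.40, 0.34 and 0.39 between testis groups. Over the tested members it gave 0.05, 0.03 and 0.33 in ovary and 0.41, 0.21 and 0.28 in testis. With 2 numbers and no label for a batch, the numbers were not treated as pairs.

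The members' mean share of reads, 1.42% in XX, 1.5% in XXYohio, 1.82% in XXYcongo, 2.11% in XY, 2.38% in XYYohio and 2.26% in XYYcongo, was 6.75%, 7.26%, 9.5%, 11.2%, 11.9% and 12.5% without merging rows, and 3.81%, 3.70%, 3.07%, 5.16%, 7.05% and 5.01% without 45S ribosomal sequence.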
